A study of Mus musculus with 60 samples.

Results

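The depot difference in the Western diet effect is the diet effect in visceral fat minus the diet effect in subcutaneous fat, computed gene by gene from raw RNA-seq counts of mouse tissue. It rests on 20 of the 60 libraries of the series, 5 in each of 4 groups. In visceral fat, mice on Western diet (VFAT-WD) were set against mice on control diet (VFAT-C), and in subcutaneous fat, mice on Western diet (SFAT-WD) against mice on control diet (SFAT-C). The Western diet held 42% fat and the control chow 11% fat, and the diets were fed for 12 weeks. All 20 libraries carry the treatment label Control. NaKtide, a peptide inhibitor of Src signalling through the Na,K-ATPase, was expressed in other groups from a transgene induced by doxycycline in the diet. Strain, sex, age, whether the mice of these 20 libraries carried the transgene or ate doxycycline, and whether 1 mouse gave both fats could not be read from the labels. No label says more about separate animals than that 5 mice were placed in each group, so the p-values measure the spread between these libraries.

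Visceral and subcutaneous fat store the same triglyceride but arise from different precursor lineages and keep different patterning genes switched on. In an overfed mouse, adipocytes enlarge, monocytes enter through chemokine receptors such as CCR2 and become macrophages that clear dying adipocytes, and fibroblasts lay down collagen; visceral fat of male mice lies against the epididymis and is known for the stronger inflammation. Subcutaneous pads lie against skin and the muscle layer beneath it. A difference of diet effects asks which transcripts answered the diet unequally in the 2 fats. In whole tissue, more cells of a type and more RNA per cell cannot be told apart.

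Total counts per library ran between 4.58 M and 9.78 M, with a median of 7.09 M. The labelled depot was checked with 5 genes of the mesothelium, the cell layer on visceral fat (Msln, Upk3b, Wt1, Lrrn4 and Bnc1). In CPM, counts relative to a library's TMM-scaled total and the unit of all levels here, they summed to 67.0 to 174 in VFAT-WD and 12.9 to 60.2 in VFAT-C, against 0.278 to 1.12 in SFAT-WD and 0.554 to 3.58 in SFAT-C, so 0 of the 20 libraries stood on the other depot's side. Transcripts known from adjacent organs were high in SFAT-C, in 3 VFAT-C libraries and in 1 VFAT-WD library. Skeletal muscle genes summed to 129 to 341 in SFAT-WD against 10028 to 78423 in SFAT-C, and to 106 to 740 over the visceral libraries. Epididymis and testis genes summed to 2061 in VFAT-WD library 1 and 12.7 to 28.1 in the other VFAT-WD libraries. In VFAT-C they summed to 33701, 69628 and 43513 in libraries 3, 4 and 5, against 756 in library 1 and 49.4 in library 2; all subcutaneous libraries of the contrast held under 40. These 4 visceral libraries above 1000 are called tract-laden. Another 4 passed the same mark among the visceral libraries with NaKtide, which enter no contrast. VFAT-C library 5 also held little adipocyte RNA: Adipoq, the gene for adiponectin, stood at 50.5 there and at 2273, 2046, 1203 and 784 in VFAT-C libraries 1 to 4. SFAT-C library 2 stood apart by its macrophage genes, which summed to 2930 against 789 to 1713 in the other SFAT-C libraries.

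**Figure D1:**
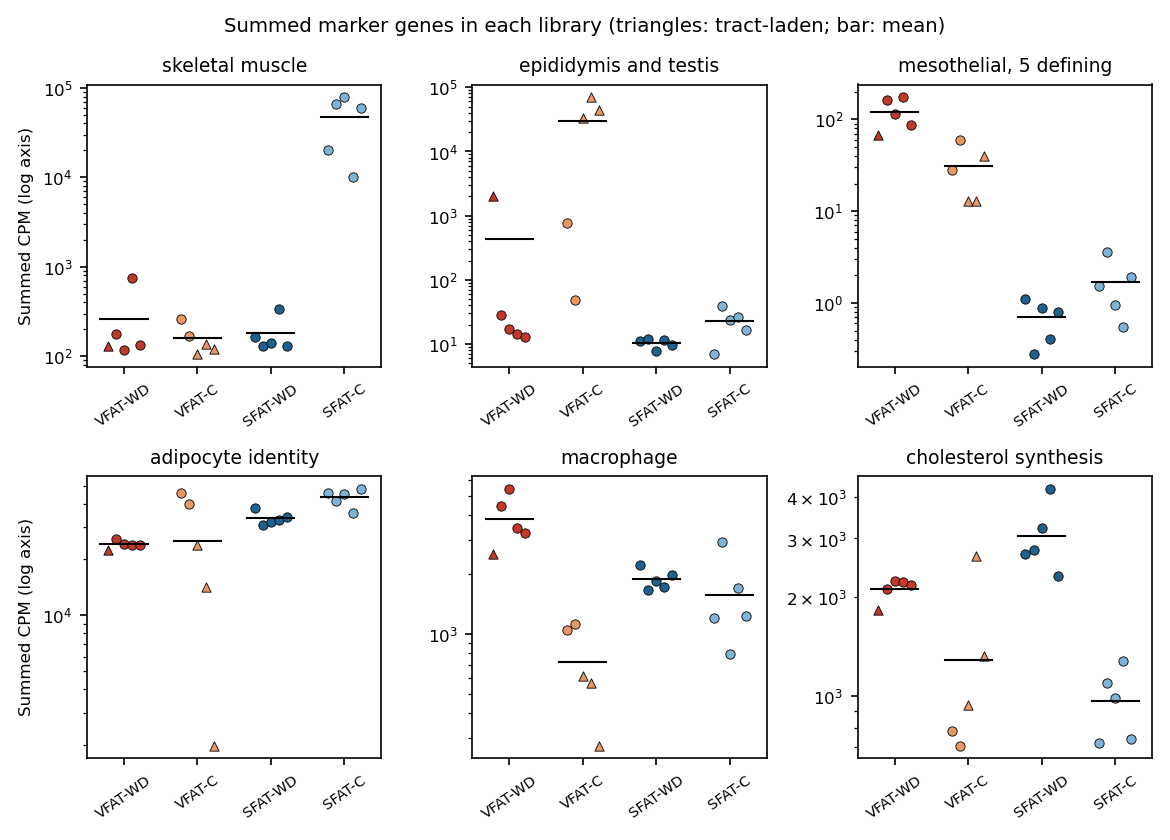
Summed CPM of 6 marker lists in each library, on log axes, by group; each point is 1 library, triangles are tract-laden libraries and the bar is the mean of 5. Muscle genes are high in SFAT-C, epididymis and testis genes in 3 VFAT-C libraries, and the macrophage sum is higher in every VFAT-WD library than in any VFAT-C library.

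Because these neighbours differ in amount between the diets, their genes were set apart. A gene was set apart if it was on the skeletal muscle, epididymis or testis list, or if its level followed the muscle sum in subcutaneous fat or the tract sum in visceral fat at a Pearson r of 0.8 or more after the group means were removed. The correlations used all libraries of a fat, those with NaKtide included. The rule placed 223 tested genes with muscle, 760 with the tract and 5 with both, and left 16800 of the 17788 tested genes.

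Of 17788 tested genes, 396 (2.23%) had a depot difference at an adjusted p under 0.05 in edgeR's quasi-likelihood test; 277 (1.56%) were higher, meaning a more positive diet effect in visceral fat, and 119 (0.669%) were lower. An unadjusted p under 0.05 was reached by 3685 genes. DESeq2 split its 1377 calls into 725 higher and 652 lower, and limma voom with quality weights its 653 calls into 366 and 287. The diet effect itself passed the test for 6663 genes (37.5%) in visceral fat, 2402 (13.5%) higher and 4261 (24%) lower, and for 494 genes (2.78%) in subcutaneous fat, 164 (0.922%) higher and 330 (1.86%) lower. The median log2 depot difference of all tested genes was -0.19. Of the called genes, 69 were set apart with muscle, all higher, and 17 with the tract, all lower. The other 310 calls, 1.85% of the 16800 genes not set apart, comprised 208 higher (1.24%) and 102 lower (0.607%). A gene not set apart is not thereby free of neighbouring tissue. Flnc, called higher, had an r of 0.796 with the muscle sum, just under the cutoff. Hoxb6, called lower, had an r of 0.777 with the tract sum. Msr1, called higher, had an r of -0.15 with the muscle sum and -0.60 with the tract sum. The rule took positive r only, so genes that fell as the tract sum rose were not set apart. Among other genes called higher, the r with the tract sum was -0.80 for Zbp1, -0.69 for C3 and -0.26 for Trem2. When genes were set apart at an r of 0.5, 228 calls were left in place of 310.

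The number of calls fell when the tract-laden libraries were left out. Without them and the 4 with NaKtide, 32 of the 40 libraries were fitted, 4 VFAT-WD and 2 VFAT-C libraries remained in the visceral arm and 1 gene was called, Echdc2 (log2 depot difference -1.63 ± 0.27 SE, edgeR adjusted p = 0.022), against 1665 genes at an unadjusted p under 0.05. All 208 higher genes kept their sign, with a median log2 depot difference of 2.07 in place of 2.48, and 208 of 208 had an unadjusted p under 0.05. Of the 102 lower genes 98 kept their sign, with a median of -0.67 in place of -1.72, and 51 had an unadjusted p under 0.05. In the visceral arm alone, 173 of the 208 higher genes and 27 of the 102 lower genes still passed the test. The count over all genes was also 132 without VFAT-WD library 3, 133 without SFAT-C library 2 and 1169 without VFAT-C library 1. Without SFAT-C library 2, 62 of the 208 higher genes kept their call and 208 of 208 their sign. The 208 and 102 genes were chosen by their p in the full fit, and the refits reuse most of its libraries. Kept signs and small p-values in these refits are therefore no independent support. The fit without the tract-laden libraries also had fewer libraries, so lost power and tract content cannot be told apart in its count of calls. The part of neighbouring tissue in the called differences was not tested.

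Most calls came from the visceral arm. Of the 208 higher genes, 190 were called higher in visceral fat and not called in subcutaneous fat, 12 were called lower in subcutaneous fat only, 2 were called in both arms with opposite signs and 4 in neither. Their median log2 diet effect was 2.58 in visceral and 0.18 in subcutaneous fat. Of the 102 lower genes, 97 were called lower in visceral fat and not in subcutaneous fat, 1 was called higher in subcutaneous fat only and 4 in neither, with median log2 diet effects of -1.49 in visceral and 0.18 in subcutaneous fat. Of all genes not set apart, the diet effect was called for 36% in visceral fat, 14.3% higher and 21.7% lower, and for 1.89% in subcutaneous fat, 0.976% higher and 0.917% lower. Genes called in the same direction in both arms numbered 112 higher and 93 lower over all tested genes, and 0 of these were called in the depot difference.

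**Figure D2:**
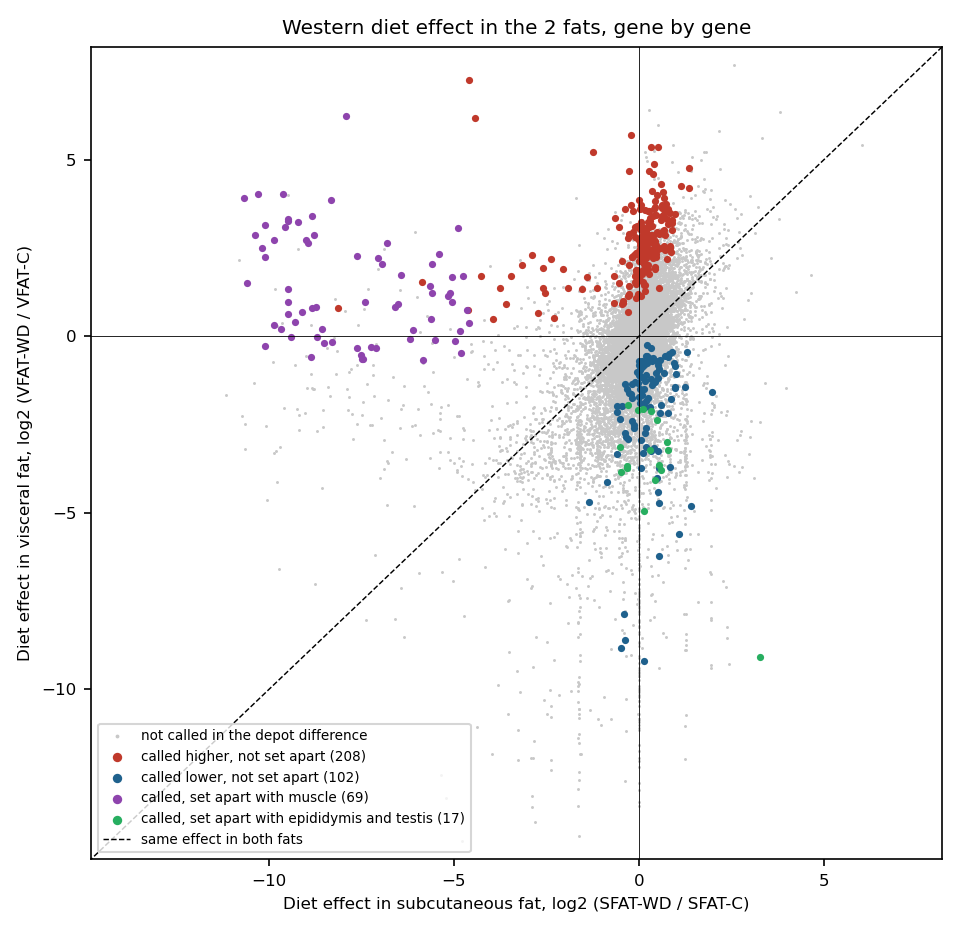
Log2 diet effect in subcutaneous fat (horizontal) and in visceral fat (vertical) for all tested genes; coloured points passed the test of the depot difference, and the dashed line marks equal effects. The 208 higher and 102 lower genes not set apart lie above and below the dashed line, with median subcutaneous effects of 0.18 in both sets, while the 69 genes set apart with muscle lie far to the left.

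Outside muscle, macrophage genes had the most calls of the gene lists. For this and every list below, the shares of all tested genes were 1.56% called higher, 0.669% called lower and 13.5% risen in visceral fat. In visceral fat 24% fell, and in subcutaneous fat 0.922% rose and 1.86% fell. In the fit without the tract-laden libraries, 1047 of 17354 tested genes rose in visceral fat and 987 fell. The lists overlap: Ctss counts among macrophage, MHC class II and lysosomal genes, and the C1q genes among macrophage and complement genes. Of 20 tested macrophage genes edgeR called 14 higher and none lower, DESeq2 called 17 and voom 7, where 1.56% of all tested genes were called higher; their median log2 depot difference was 2.17, against -0.19 for all tested genes. In the visceral arm 16 of the 20 rose (median log2 diet effect 2.45). In the subcutaneous arm edgeR called 0 of 20 (median 0.22), with 1 gene at an unadjusted p under 0.05, 1 called by DESeq2 and 6 by voom. Without the tract-laden libraries 18 of the 20 differences were positive, with a median of 1.77, 0 were called by edgeR and 17 had an unadjusted p under 0.05. Without SFAT-C library 2, whose macrophage sum was the highest of its group, 2 of the 20 were called higher, 18 had an unadjusted p under 0.05 and 20 of 20 were positive (median 1.92). The subcutaneous median was then 0.64, with 0 called by edgeR and 6 at an unadjusted p under 0.05.

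Msr1, the class A scavenger receptor that takes up modified lipoproteins, stood at 12.8, 19.5, 34.7, 21.1 and 18.3 CPM in VFAT-WD libraries 1 to 5 and at 2.88, 2.40, 2.69, 1.29 and 3.06 in VFAT-C. In subcutaneous fat it stood at 4.62, 5.84, 4.84, 4.37 and 6.17 in SFAT-WD and at 3.88, 13.8, 2.67, 3.88 and 3.82 in SFAT-C. Every VFAT-WD library exceeded all other libraries except SFAT-C library 2, which exceeded VFAT-WD library 1. Its log2 diet effect was 3.10 ± 0.48 (SE) in visceral and -0.10 ± 0.44 in subcutaneous fat, a depot difference of 3.20 ± 0.64 (adjusted p = 0.012). Cd68, a lysosomal glycoprotein used as a macrophage marker, reached 90.1, 189, 330, 169 and 156 CPM in VFAT-WD, against 28.3, 30.2, 16.3, 29.3 and 9.95 in VFAT-C. SFAT-WD libraries held 38.9 to 78.3 and SFAT-C libraries 14.5 to 138, so the subcutaneous groups overlapped and the visceral groups did not. Its depot difference was 2.98 ± 0.72 (adjusted p = 0.024), and 2.32 ± 0.67 without SFAT-C library 2, the highest of its group (adjusted p = 0.087). Fcgr1, the high-affinity receptor for IgG, was at 13.5 to 24.9 CPM in VFAT-WD, 1.44 to 3.54 in VFAT-C, 6.53 to 10.1 in SFAT-WD and 1.33 to 29.8 in SFAT-C (depot difference 3.12 ± 0.68, adjusted p = 0.017). The 29.8 was SFAT-C library 2; the other SFAT-C libraries, at 1.33 to 5.96, lay below every SFAT-WD library, and without it the depot difference was 1.98 ± 0.52 and did not pass (adjusted p = 0.058).

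The other called macrophage genes were Adgre1, which encodes the F4/80 antigen (log2 depot difference 3.43), Itgam, the CD11b integrin chain (2.57), Mrc1, the mannose receptor (2.27), Lyz2, lysozyme (2.23), Csf1r, the receptor for macrophage colony-stimulating factor (2.07), the signalling adaptors Fcer1g (2.01) and Tyrobp (1.90), the complement genes C1qa, C1qb and C1qc (1.76 to 1.91), and Ctss, a lysosomal protease (2.84). Promoters of 9 of the 14 called macrophage genes were in the RefSeq table for GRCm38.p6, 250 bases before to 50 after the start, taking the first start listed. A motif bound by the myeloid factor PU.1, GAGGAAG, or its reverse complement CTTCCTC, was searched on both strands; 5 of the 9 held it (C1qc, Ctss, Fcgr1, Itgam and Mrc1, but not C1qb, Cd68, Fcer1g or Lyz2), and so did 3658 of 27025 promoters in the table (13.5%). Of the 5 that held it, 3 are shown to let the matches be read in place, with every match in capitals. A match is a description and not a site. Fcgr1 lies at chr3:96293920-96294219 on the minus strand, Itgam at chr7:128062390-128062689 on the plus strand and Mrc1 at chr2:14229164-14229463 on the plus strand.
Fcgr1: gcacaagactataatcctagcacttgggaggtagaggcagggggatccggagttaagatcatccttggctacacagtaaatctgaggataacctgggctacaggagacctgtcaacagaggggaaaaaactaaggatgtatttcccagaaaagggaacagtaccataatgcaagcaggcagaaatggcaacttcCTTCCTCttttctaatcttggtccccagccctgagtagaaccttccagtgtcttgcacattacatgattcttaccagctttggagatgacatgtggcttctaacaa
Itgam: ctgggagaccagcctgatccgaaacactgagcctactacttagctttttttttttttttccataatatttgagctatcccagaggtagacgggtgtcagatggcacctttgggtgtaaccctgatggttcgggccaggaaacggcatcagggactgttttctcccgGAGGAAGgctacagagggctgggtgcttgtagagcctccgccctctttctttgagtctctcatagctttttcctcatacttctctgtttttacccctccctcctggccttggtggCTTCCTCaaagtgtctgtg
Mrc1: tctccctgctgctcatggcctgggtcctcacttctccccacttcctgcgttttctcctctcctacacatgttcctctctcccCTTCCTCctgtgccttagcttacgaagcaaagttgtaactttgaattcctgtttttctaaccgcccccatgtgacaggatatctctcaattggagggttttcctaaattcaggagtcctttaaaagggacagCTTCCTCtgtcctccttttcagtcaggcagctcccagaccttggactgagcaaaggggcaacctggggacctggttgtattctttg

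**Figure D3:**
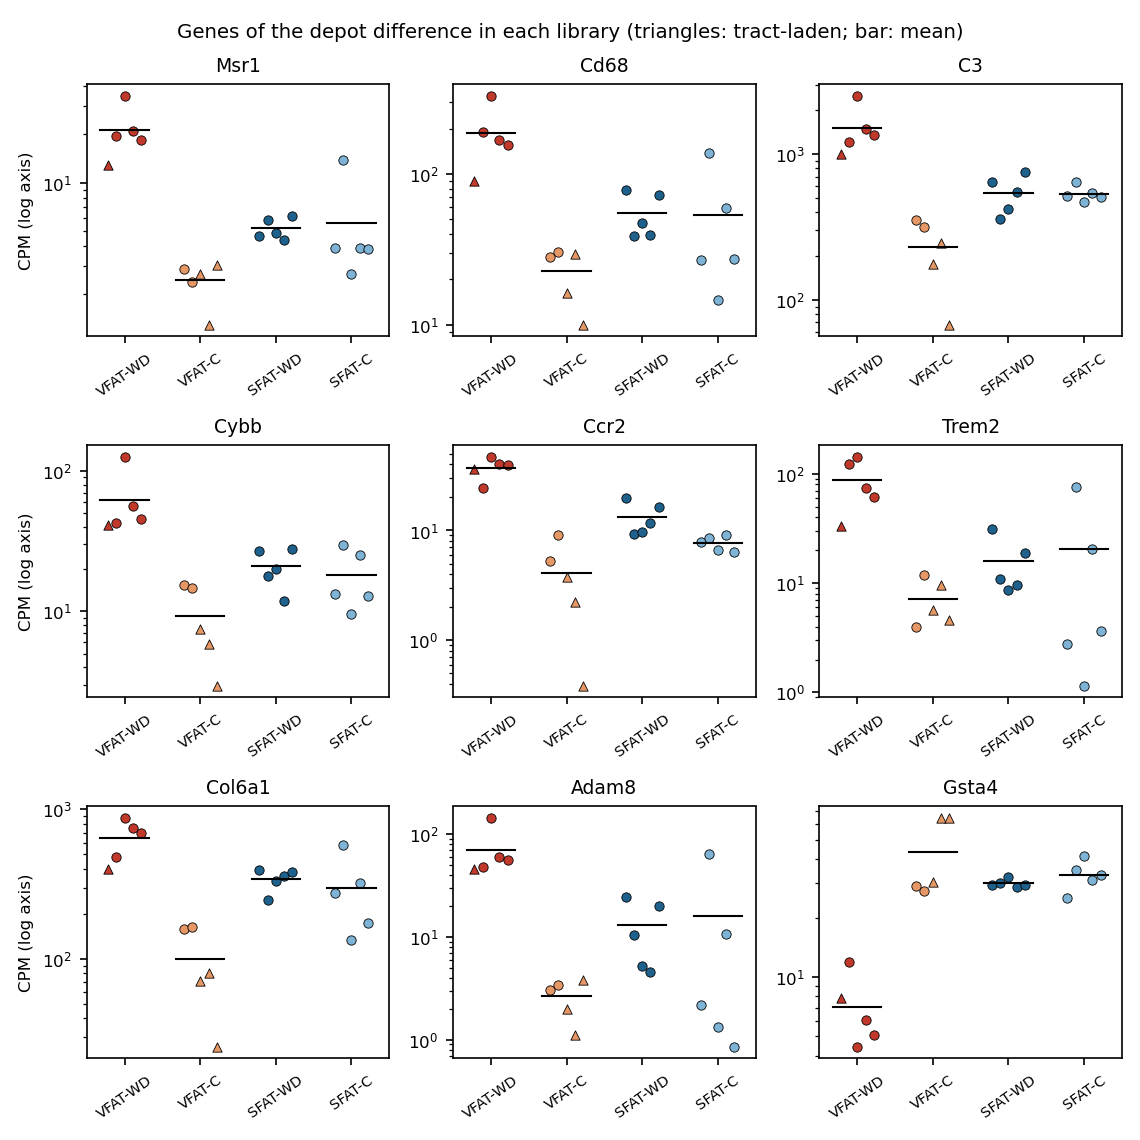
CPM of 9 genes in each library on log axes, by group, with the mean of 5 as a bar and tract-laden libraries as triangles. For the first 8 genes every VFAT-WD library lies above every VFAT-C library while the subcutaneous groups overlap, except Ccr2, for which SFAT-WD also lies above SFAT-C; Gsta4 is lower in every VFAT-WD library than in any other.

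Of 20 tested genes of macrophages laden with lipid, 2 were called higher (median log2 depot difference 1.08), and 11 rose in visceral fat. Trem2, a lipid receptor of macrophages that surround dying adipocytes, stood at 33.5, 123, 143, 74.2 and 61.6 CPM in VFAT-WD and at 3.96, 11.9, 5.74, 9.57 and 4.59 in VFAT-C. It stood at 31.3, 10.8, 8.60, 9.57 and 19 in SFAT-WD and at 2.80, 75.5, 1.15, 20.5 and 3.61 in SFAT-C, a spread that SFAT-C library 2 set. Its depot difference was 3.96 ± 1.09 (adjusted p = 0.046), and 2.53 ± 0.97 without that library (adjusted p = 0.19). Lipa, the lysosomal lipase, differed by 2.13 ± 0.57 (adjusted p = 0.039).

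Recruitment and antigen presentation showed the same orientation. Of 22 tested chemokine and cytokine genes 2 were called higher (median 1.67), while 15 rose in visceral and 3 in subcutaneous fat. Ccr2, the receptor by which monocytes follow CCL2, was at 36.3, 24.3, 46.8, 40 and 39.4 CPM in VFAT-WD, against 5.22, 9.03, 3.76, 2.21 and 0.383 in VFAT-C. In SFAT-WD it was at 9.31 to 19.6 and in SFAT-C at 6.37 to 9, so that neither fat's groups overlapped. Its depot difference was 2.38 ± 0.67 (adjusted p = 0.050). Ccl2 itself rose in both fats, by 5.61 ± 0.86 in visceral fat (adjusted p = 3.0e-05) and 3.32 ± 0.78 in subcutaneous fat (adjusted p = 0.012) on the log2 scale. It stood at 49.7 to 126 CPM in VFAT-WD, 0 to 3.50 in VFAT-C, 15.5 to 50.4 in SFAT-WD and 0.382 to 9.91 in SFAT-C. Its depot difference of 2.29 did not pass the test (95% interval 0.21 to 4.37 from the standard error alone, adjusted p = 0.21).

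Ciita, the master regulator of MHC class II genes, was called higher with 18.5, 11.5, 32.3, 18.1 and 16.8 CPM in VFAT-WD, against 2.34, 3.88, 0.538, 1.66 and 0.638 in VFAT-C. Both subcutaneous groups spanned similar values, 6.29 to 19 in SFAT-WD and 2.76 to 16.0 in SFAT-C (depot difference 2.76 ± 0.69, adjusted p = 0.029). Of 12 tested MHC class II genes 2 were called higher, Ciita and Ctss, and 9 rose in visceral fat. Over all tested genes 1.56% were called higher and 13.5% rose in visceral fat. Zbp1, an interferon-induced sensor of Z-form nucleic acids, was the 1 called of 20 interferon-stimulated genes. It stood at 21.6 to 34.3 CPM in VFAT-WD, 1.15 to 3.96 in VFAT-C, 18.6 to 27.8 in SFAT-WD and 5.10 to 30.6 in SFAT-C (depot difference 2.65 ± 0.56, adjusted p = 0.016). The 30.6 was SFAT-C library 2, and the other SFAT-C libraries lay below every SFAT-WD library. Without it Zbp1 rose in subcutaneous fat as well, by 1.41 ± 0.38 on the log2 scale (adjusted p = 0.040), with a depot difference of 2.12 ± 0.51 (adjusted p = 0.045). The SFAT-WD and VFAT-WD ranges overlapped for this gene, and VFAT-C lay below every SFAT-C library. Il7r, the interleukin 7 receptor, differed by 5.03 ± 1.38 (adjusted p = 0.046). Of 18 tested T, B and cytotoxic lymphocyte genes edgeR called 0, with 3 at an unadjusted p under 0.05, 1 called by DESeq2 and 0 by voom.

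Complement and the phagocyte oxidase gave 7 of 20 and 1 of 8 tested genes called higher, with medians of 1.44 and 1.61. C3, the central complement component, was at 1009, 1219, 2509, 1500 and 1360 CPM in VFAT-WD and at 356, 316, 176, 247 and 67.2 in VFAT-C. It was at 359 to 749 in SFAT-WD and at 470 to 649 in SFAT-C, where the groups overlapped. Its depot difference was 2.69 ± 0.54 (adjusted p = 0.012). The receptors C5ar1 (3.17) and C3ar1 (3.09), the 3 C1q genes and the C1 inhibitor gene Serping1 (1.66) made up the other calls. Cybb, the catalytic NOX2 subunit that makes superoxide in phagocytes, was at 41.5, 42.3, 126, 56.0 and 45.4 CPM in VFAT-WD and at 15.5, 14.6, 7.53, 5.89 and 2.94 in VFAT-C, against 11.9 to 28.0 in SFAT-WD and 9.54 to 29.8 in SFAT-C (depot difference 2.53 ± 0.59, adjusted p = 0.021). Without SFAT-C library 2, 3 of the 20 complement genes and 0 of the 8 oxidase genes were called, with 6 of the 8 at an unadjusted p under 0.05.

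Matrix genes rose in visceral fat, and few passed the test of the difference. All 24 tested collagen and matrix genes rose in VFAT-WD relative to VFAT-C (median log2 2.27), and edgeR called 0 of 24 in subcutaneous fat (median 0.37), with 4 at an unadjusted p under 0.05, 2 called by DESeq2 and 6 by voom. The depot difference was positive for all 24 (median 2.15) and was called for 3. Col6a1, a chain of the collagen VI that surrounds adipocytes, was at 401, 481, 876, 747 and 694 CPM in VFAT-WD and at 159, 162, 71.1, 80.5 and 25.8 in VFAT-C. In SFAT-WD it was at 246 to 391 and in SFAT-C at 134 to 577, overlapping (depot difference 2.48 ± 0.67, adjusted p = 0.042). Lum, a proteoglycan that spaces collagen fibrils, differed by 2.91 ± 0.80 (adjusted p = 0.046). It was at 26.7 to 106 CPM in VFAT-WD and 30.4 to 60.0 in SFAT-WD, so the 2 fats overlapped on Western diet. On control diet VFAT-C, at 1.15 to 11.1, lay below every SFAT-C library, at 14.7 to 58.7. Tnc, tenascin C, differed by 3.08 ± 0.70 (adjusted p = 0.018), with a visceral effect of 1.68 ± 0.49 (adjusted p = 0.0093) and a subcutaneous effect of -1.40 ± 0.49 that did not pass (adjusted p = 0.13). SFAT-C library 2 was the highest of its group for Tnc, at 58.7 CPM. With it left out the subcutaneous effect was -0.66 ± 0.46 and the depot difference 2.37 ± 0.63 (adjusted p = 0.064). The visceral effect of Tnc without the tract-laden libraries was 1 ± 0.61 (adjusted p = 0.3). Col1a1, a chain of collagen I, differed by 2.68 ± 0.78 and did not pass (adjusted p = 0.058). It likewise overlapped on Western diet, at 368 to 809 CPM in VFAT-WD and 514 to 800 in SFAT-WD. On control diet it was at 24.6 to 177 in VFAT-C and 219 to 2345 in SFAT-C. Without the tract-laden libraries 23 of 24 differences were positive (median 1.52). In the visceral arm 10 of 24 genes then rose, where 1047 of all 17354 tested genes did. Without SFAT-C library 2 all 24 differences were positive (median 1.54), edgeR called 0 and 14 had an unadjusted p under 0.05.

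Adam8, a membrane protease of leukocytes, was at 46.1, 47.5, 143, 59.5 and 55.7 CPM in VFAT-WD and at 3.06, 3.43, 1.97, 1.10 and 3.83 in VFAT-C. SFAT-WD held 4.51 to 24.6 and SFAT-C 0.850 to 63.9, again with SFAT-C library 2 at the top (depot difference 4.95 ± 1.27, adjusted p = 0.033). Without that library the difference was 3.04 ± 1.11 (adjusted p = 0.18). It was the 1 called of 19 tested protease and inhibitor genes, of which 15 rose in visceral fat. Of 20 fibroblast progenitor genes 2 were called higher, Lum and Icam1, an adhesion molecule (1.44 ± 0.38, adjusted p = 0.038). Of 26 lysosomal genes 4 were called higher: Ctsk, cathepsin K (2.92), Ctss, Lipa and Npc1, a cholesterol exporter (1.36). Ctsk overlapped between the fats on Western diet, at 40.5 to 104 CPM in VFAT-WD and 53.3 to 70.5 in SFAT-WD. On control diet it was at 2.17 to 17.0 in VFAT-C and 33.4 to 115 in SFAT-C. When SFAT-C library 2 was left out, edgeR called 0 lipid-laden macrophage, chemokine, protease, fibroblast progenitor and lysosomal genes, where 7, 11, 7, 8 and 11 had an unadjusted p under 0.05, and 1 of the 12 MHC class II genes.

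**Figure D4:**
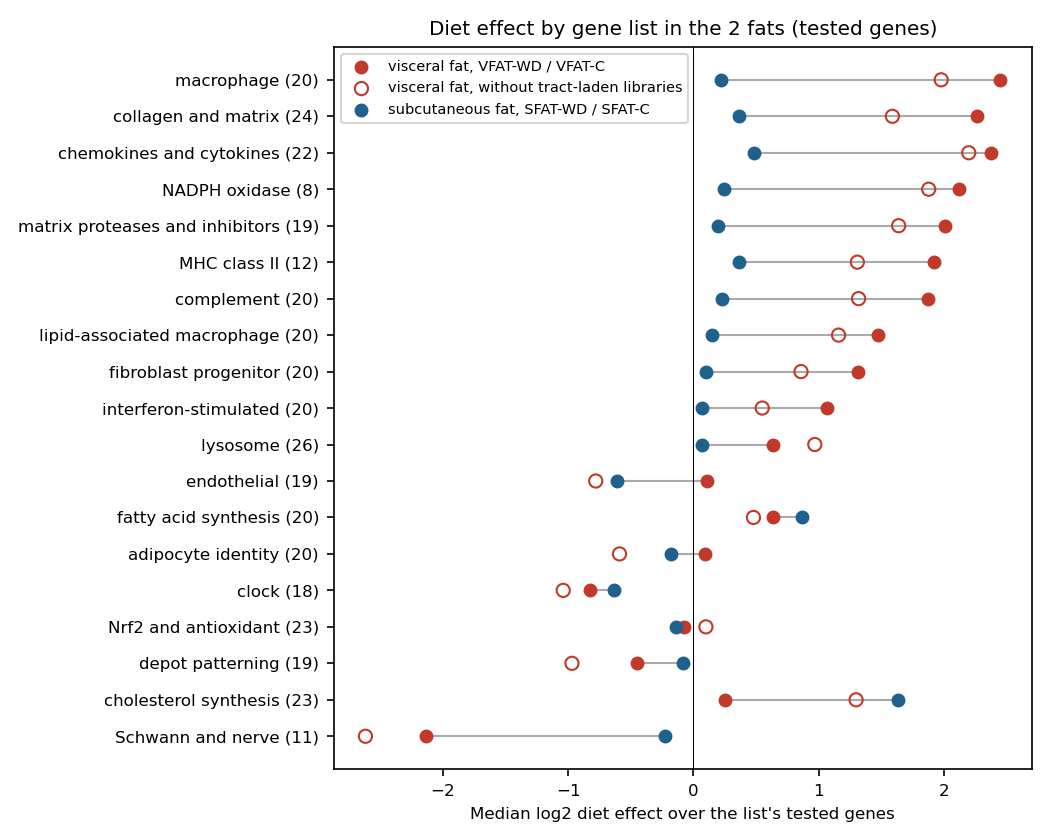
Median log2 diet effect of the tested genes of 19 lists in visceral fat (filled red), in visceral fat without the tract-laden libraries (open red) and in subcutaneous fat (blue); the number tested is in parentheses. The first 10 lists, macrophage to interferon, lie at 1.07 to 2.45 in visceral and 0.07 to 0.48 in subcutaneous fat, and the cholesterol list moves from 0.26 to 1.3 in visceral fat when the tract-laden libraries are left out.

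Genes with a lower diet effect in visceral fat fell into those low in every VFAT-WD library and those high in a few VFAT-C libraries. Gsta4, a glutathione transferase that detoxifies 4-hydroxynonenal, a product of lipid peroxidation, was at 7.83, 12.0, 4.42, 6.06 and 5.11 CPM in VFAT-WD and at 29.2, 27.5, 30.6, 64.2 and 64.6 in VFAT-C. It was at 28.7 to 32.4 in SFAT-WD and at 25.3 to 41.2 in SFAT-C. Every VFAT-WD library lay below all 15 others. Its visceral effect was -2.61 ± 0.38 (adjusted p = 2.0e-05), its subcutaneous effect -0.14 ± 0.36 and its depot difference -2.47 ± 0.51 (adjusted p = 0.014). It was the 1 called of 23 tested Nrf2 and antioxidant genes. Its depot difference without the tract-laden libraries was -1.86 ± 0.49 (adjusted p = 0.18).

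Hoxa10 and the adjacent Hoxa9, homeobox genes that mark position along the body, were the 2 called of 19 tested depot patterning genes. Hoxa10 was at 0.341, 0, 0.103, 0.0918 and 0 CPM in VFAT-WD, against 14.2, 0.8, 1.43, 13.4 and 0.383 in VFAT-C. In subcutaneous fat it was at 10.9, 17.4, 21.4, 20.8 and 4.00 in SFAT-WD and at 7.46, 0.275, 16.2, 5.96 and 5.31 in SFAT-C. VFAT-WD lay below every VFAT-C library, by a narrow margin for VFAT-C library 5 (depot difference -6.69 ± 1.58, adjusted p = 0.022). Hoxa9 differed by -4.27 ± 1.09 (adjusted p = 0.031).

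Several negative differences belonged to genes that were highest in tract-laden VFAT-C libraries and were not reached by the correlation rule. Ntsr2, a neurotensin receptor, was at 3.06, 5.88, 7.50, 3.30 and 3.50 CPM in VFAT-WD and at 10.4, 5.83, 1042, 494 and 207 in VFAT-C, the last 3 being the tract-laden ones. It was at 3.16 to 15.0 in SFAT-WD and at 4.01 to 9.09 in SFAT-C (depot difference -6.79 ± 1.85, adjusted p = 0.044), and without the tract-laden libraries the difference was -1.18 ± 0.70 (adjusted p = 0.65). Hoxb6 likewise stood at 1.85 to 10 in VFAT-WD and at 7.56, 7.31, 202, 414 and 118 in VFAT-C (depot difference -5.29, without those libraries -0.77). Mal, a myelin and epithelial membrane protein, stood at 0.100 to 0.567 in VFAT-WD and at 20, 0.8, 131, 166 and 70.8 in VFAT-C (-7.48 ± 1.90, adjusted p = 0.031). The difference of Mal without the tract-laden libraries was -4.81 ± 1.14 (adjusted p = 0.14), and its fall in visceral fat still passed (-5.23 ± 0.93, adjusted p = 0.0011). That fit kept VFAT-C libraries 1 and 2, with Mal at 20 and 0.8 CPM and tract sums of 756 and 49.4. Most of the Mal left was thus in library 1, which was not free of tract transcripts. The r of Mal with the tract sum was 0.78. Rhbg, an ammonium transporter, and Irx1, a homeobox factor, had 0 counts over the VFAT-WD libraries, against 302 and 262 counts in VFAT-C. Set against a floor of 3 counts over the group, Rhbg was at least 146-fold and Irx1 at least 126-fold lower in VFAT-WD than in VFAT-C. These counts lay almost wholly in the tract-laden libraries: VFAT-C libraries 1 to 5 held Rhbg at 0.180, 0, 10.6, 34.2 and 7.15 CPM and Irx1 at 0.540, 0, 20.1, 1.47 and 17.7. The depot difference of Irx1 without the tract-laden libraries was -3.29 ± 2.31 (adjusted p = 0.73). Gldc, the glycine cleavage enzyme, stood at 205 and 74.5 in VFAT-C libraries 3 and 5 and at 5.58 or less in every other visceral library (-4.93 ± 1.37, adjusted p = 0.047). Krt10, a keratin of skin, differed by -1.51 ± 0.42 (adjusted p = 0.047). The part of epididymis and testis RNA in these genes was not tested. Of the genes set apart with the tract, Cad, the enzyme that starts pyrimidine synthesis, differed by -4.18 and Gstm7, a glutathione transferase with close relatives among which reads may be shared, by -5.08; without the tract-laden libraries the values were 0.02 and 0.03. Dapl1 had 3 counts over VFAT-WD, against 1244 in VFAT-C, a ratio of 600 with a 95% counting interval of 205 to 2910 that covers counting error only; its depot difference of -12.33 was -7.30 without SFAT-WD library 2 and did not pass (adjusted p = 0.62). Of 34 tested epididymis genes edgeR called 0 in the depot difference, with 3 at an unadjusted p under 0.05, 9 called by DESeq2 and 0 by voom.

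Muscle genes, set apart, were called higher and were lower in SFAT-WD than in SFAT-C. Of 31 tested skeletal muscle genes 25 were called higher (median log2 depot difference 9.77), and 30 fell in subcutaneous fat. In visceral fat edgeR called 0 of 31, with 2 at an unadjusted p under 0.05, 5 called by DESeq2 and 0 by voom. Atp2a1, the calcium pump of fast muscle fibres, was at 0.140, 0, 0.494, 15.2 and 0.114 CPM in SFAT-WD and at 1096, 3006, 4802, 562 and 3101 in SFAT-C. In visceral fat it was at 0, 0.353, 0, 35.7 and 0 in VFAT-WD and at 0.180 to 1.10 in VFAT-C. Its depot difference was 13.65 ± 3.06 (adjusted p = 0.018), and 7.50 without VFAT-WD library 4 (adjusted p = 0.50). Pvalb, the calcium buffer of fast fibres, differed by 12.25 ± 2.13 (adjusted p = 0.0065). Abra, an actin-binding regulator of muscle, had 0 counts over SFAT-WD, against 513 in SFAT-C, at least 254-fold lower in SFAT-WD, and 13 counts over VFAT-WD, against 0 in VFAT-C, at least 3-fold higher in VFAT-WD. Among genes outside the set-apart rule, the actin crosslinker Flnc (5.96 ± 1.12), the LIM protein Fhl3 (4.51 ± 0.99) and the neuronal nitric oxide synthase gene Nos1 (5.12 ± 1.22), all known from muscle, were called higher with subcutaneous effects of -4.26, -3.58 and -3.76.

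Over all tested genes, 3 were called higher in visceral and lower in subcutaneous fat, Trdn, Alpk2 and Mstn, and 0 the other way round. Trdn, triadin of the muscle calcium release complex, was at 12.8, 22.4, 13.1, 30.9 and 28.6 CPM in VFAT-WD and at 0.360, 0.229, 0.179, 0.184 and 0.383 in VFAT-C. In subcutaneous fat it was at 2.52, 0.556, 0, 3.14 and 0.343 in SFAT-WD and at 90.6, 481, 529, 47.4 and 413 in SFAT-C. Neither pair of groups overlapped. The visceral effect was 6.23 ± 1.41 (adjusted p = 0.0015), the subcutaneous effect -7.92 ± 1.34 (adjusted p = 0.00083) and the depot difference 14.15 ± 1.93 (adjusted p = 0.00026). Alpk2, an alpha kinase known from heart and muscle, was at 2.50, 4.58, 8.94, 6.15 and 5.31 in VFAT-WD, against 0, 0, 0, 0 and 0.255 in VFAT-C, and at 0 to 0.685 in SFAT-WD, against 0.554 to 15.4 in SFAT-C. Its 268 counts over VFAT-WD and 2 over VFAT-C gave a ratio of 92.7 (95% counting interval 25.4 to 769), and its depot difference was 10.62 ± 1.78 (adjusted p = 0.0052). Mstn, the muscle growth inhibitor myostatin, had 131 counts over VFAT-WD, against 0 over VFAT-C, at least 30.2-fold higher in VFAT-WD. Atp2a1 was at 0 in 3 of the 5 VFAT-WD libraries in which Trdn was at 12.8 or more. Without the tract-laden libraries the visceral effect of Alpk2 was 8.51 ± 2.58 (adjusted p = 0.031) and that of Trdn 6.34 ± 2.38 (adjusted p = 0.080).

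Cholesterol synthesis genes rose in both fats, 10 of 23 tested in visceral and 12 of 23 in subcutaneous fat, with 2 falling in visceral fat. The median log2 diet effect was 0.26 in visceral and 1.63 in subcutaneous fat, the median depot difference -1, and 3 of 23 differences were positive. EdgeR called 0 of 23 differences, with 9 at an unadjusted p under 0.05, 3 called by DESeq2 and 0 by voom. Sqle, squalene epoxidase, was at 33.6, 22.9, 35.2, 35.3 and 30.8 CPM in VFAT-WD and at 10.4, 7.31, 37.6, 104 and 72.7 in VFAT-C, the tract-laden libraries being the highest. It was at 25.4 to 71.8 in SFAT-WD and at 5.10 to 12.6 in SFAT-C, without overlap (depot difference -2.95 ± 0.88, adjusted p = 0.063). Fdft1, squalene synthase, was at 50.7 to 86.1 in VFAT-WD and at 83.3, 94.7, 152, 329 and 364 in VFAT-C, against 72.0 to 171 in SFAT-WD and 76.9 to 152 in SFAT-C (depot difference -1.86, adjusted p = 0.056). Without the tract-laden libraries the list's median depot difference was 0.12 and 13 of 23 differences were positive.

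**Figure D5:**
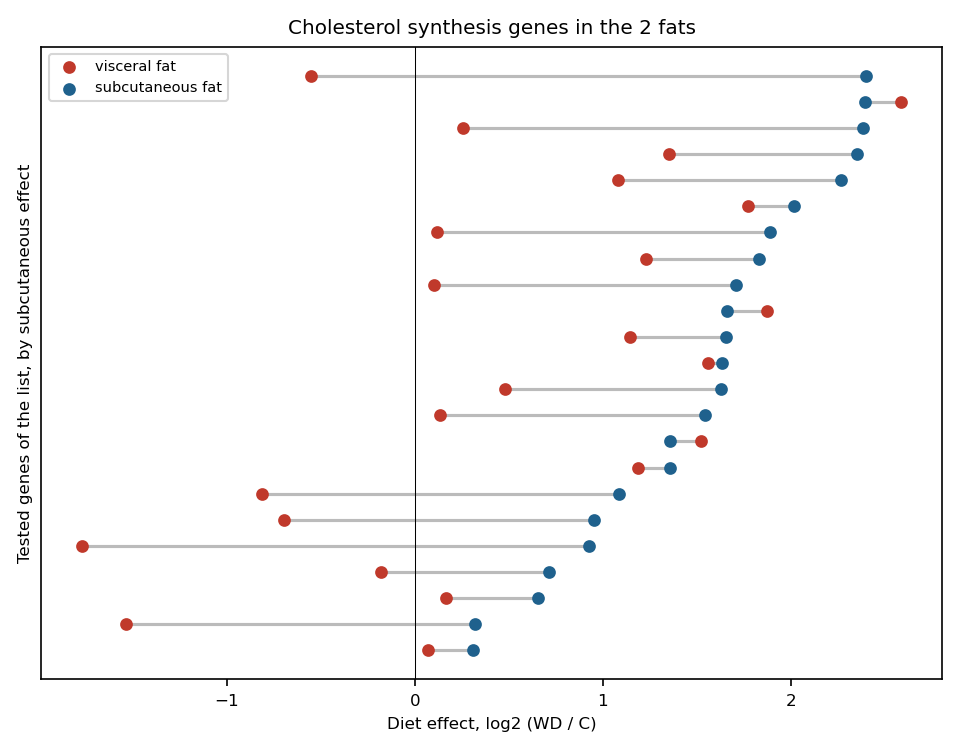
Log2 diet effect of the 23 tested cholesterol synthesis genes in visceral (red) and subcutaneous fat (blue), 1 line per gene, ordered by the subcutaneous effect. The subcutaneous effect is positive for all 23 and exceeds the visceral effect for 20.

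Lep, the leptin gene, was at 2953, 2802, 3102, 3370 and 3431 in VFAT-WD and at 1669, 1812, 692, 433 and 14.8 in VFAT-C, the lowest being the library with little adipocyte RNA. It was at 1996 to 2814 in SFAT-WD and at 445 to 1850 in SFAT-C. Its depot difference was 0.90 with an interval of -0.84 to 2.64. Adipoq was at 1042 to 1800 in VFAT-WD, 50.5 to 2273 in VFAT-C, 1647 to 2032 in SFAT-WD and 2100 to 2522 in SFAT-C (depot difference 0.40, interval -0.82 to 1.62). Of 20 adipocyte identity genes edgeR called 0, with 0 at an unadjusted p under 0.05, 0 called by DESeq2 and 2 by voom. Their median depot difference was 0.19, with 15 of 20 positive. Without the tract-laden libraries it was -0.61, with 4 of 20 positive, 0 called and 4 at an unadjusted p under 0.05. In the visceral arm 7 of the 20 were then called lower, where 987 of all 17354 tested genes were. In the full fit 2 of the 20 were called lower, where 24% of all tested genes were. The depot difference of Lep was then 0.06 ± 0.66.

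Tph2, the enzyme that starts serotonin synthesis in neurons, was at 10.4, 56.9, 66.0, 57.4 and 49.0 CPM in VFAT-WD and at 0.360, 0.229, 0.179, 0.368 and 0 in VFAT-C. In subcutaneous fat it was at 43.9, 13.3, 7.61, 27.6 and 25.8 in SFAT-WD and at 0.311, 4.13, 0, 14.1 and 0.850 in SFAT-C. The visceral effect was 7.69 ± 1.38 (adjusted p = 0.00014), and neither the subcutaneous effect of 2.56 ± 0.99 (adjusted p = 0.18) nor the depot difference of 5.13 ± 1.66 (adjusted p = 0.084) passed. Of 18 clock genes edgeR called 0, with 4 at an unadjusted p under 0.05 and 1 called by each of DESeq2 and voom, and the medians were -0.82 in visceral and -0.63 in subcutaneous fat. Hlf, a PAR bZIP factor of clock output, fell in visceral fat (-2.58 ± 0.41, adjusted p = 4.0e-05), and its difference of -1.94 ± 0.55 did not pass (adjusted p = 0.051). Lcn2, lipocalin 2, which is also made by the epididymis, was at 20.8 to 35.5 in VFAT-WD and at 35.6, 8.11, 338, 4659 and 1828 in VFAT-C and was set apart with the tract.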

How the data were processed

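Each library was made from total RNA of 1 fat sample with a stranded mRNA kit and sequenced in paired reads of 50 bases, per the labels' protocols. Reads were trimmed with Trimmomatic 0.38 and aligned to GRCm38 with HISAT2 2.1.0, per the submitters' processing notes, which also name DESeq2 1.20.0; no label names the counting program, its annotation or its use of strand, so reads of a gene and an antisense partner may not be told apart. The authors deposited raw counts per Ensembl gene (54232 IDs); 54079 matched a symbol and coordinates in GENCODE M21 (GRCm38).

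From these counts, edgeR 4.0.16 (R 4.3.3) fitted 1 mean per group to the 40 fat libraries of 8 groups (TMM scaling, filterByExpr, quasi-likelihood F test) and tested both diet effects and their difference, with Benjamini-Hochberg adjustment at 0.05 over 17788 genes. The 4 groups with NaKtide entered no contrast. They helped to estimate the spread and to decide which genes were tested and which were set apart. Alternatives used DESeq2 1.42.0, limma 3.58.1 and other scalings, filters and libraries. Genes named in the text are selected from a rule: the 12 largest called differences in each direction with a mean of 5 CPM or more in a group, 4 set-apart genes per direction, the leading members of each of 38 lists and a set of fat genes; Echdc2, and members listed beside their list's count of calls, were named after their values were seen. The members and lists were chosen with earlier results of these data known. On simulated counts for 17788 genes, the test of the depot difference recovered 9 of 100 genes changed 2-fold and 43 of 100 changed 4-fold, with 7 false calls. Intervals on counts cover counting error only. Same-numbered libraries of the 2 fats deviated together at correlations of -0.015 to 0.30 on Western diet (mean 0.10, against -0.02 for unlike numbers). On control diet the correlations were -0.18 to 0.06 (mean -0.08, against 0.02). The numbers were not taken to pair libraries, and whether 1 mouse gave both fats stays unknown. Some genes of the lists are counted but not reported by name here.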

Additional observations from a re-analysis of the deposited data

Results flagged for a closer look

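In the fit of all fat libraries, edgeR's test of the difference itself called the 40 genes listed here. Without the tract-laden libraries the only gene called was Echdc2, which is not among them. When 1 library at a time was left out, 12 of the 40 kept the call in all 20 fits. The fewest were 2 of 20 fits, for Cad and Gstm7. Among genes not set apart the log2 depot differences were 10.62 for Alpk2, 11.84 for Mstn, 5.96 for Flnc, 4.51 for Fhl3 and 5.12 for Nos1. Among immune and lysosomal genes they were 3.20 for Msr1, 3.12 for Fcgr1, 2.98 for Cd68, 2.69 for C3, 3.17 for C5ar1, 2.38 for Ccr2, 2.76 for Ciita, 2.84 for Ctss, 2.53 for Cybb, 3.96 for Trem2, 2.13 for Lipa, 4.95 for Adam8, 5.03 for Il7r, 2.65 for Zbp1 and 1.44 for Icam1. Lum differed by 2.91, Col6a1 by 2.48 and Tnc by 3.08. Negative differences were -2.47 for Gsta4, -6.69 for Hoxa10, -4.27 for Hoxa9, -7.48 for Mal, -9.34 for Rhbg, -8.34 for Irx1, -5.29 for Hoxb6, -6.79 for Ntsr2, -4.93 for Gldc and -1.51 for Krt10. Set apart were Trdn (14.15), Pvalb (12.25), Abra (14.31), Atp2a1 (13.65), Dapl1 (-12.33), Cad (-4.18) and Gstm7 (-5.08). Fitted values for Abra, Mstn, Rhbg and Irx1 rest on groups without a count and depend on the prior count, so their size is no bound.

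A library stood far from the other 4 of its group in 10 of 88 groups of values examined. The cutoff would mark about 1 in 20 groups of normally distributed values, which CPM need not be. SFAT-C library 2 was high for Msr1 (13.8 CPM), Trem2 (75.5) and Adam8 (63.9). VFAT-WD library 3 was high for Cybb (126) and Adam8 (143). Atp2a1 was high in VFAT-WD library 4 (35.7), SFAT-WD library 4 (15.2) and VFAT-C library 4 (1.10). Other distant values were Alpk2 in VFAT-C library 5 (0.255) and Adipoq in SFAT-WD library 1 (2030).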

How the results depend on the processing

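The count of depot differences, 396 over all genes and 310 over those not set apart, moved most with the libraries used. Without the tract-laden libraries it was 1 and 1, and the visceral and subcutaneous diet effects were called for 2034 and 1392 genes. Without those and, as alternatives chosen after seeing the data, also the libraries on the other depot's side (2 NaKtide libraries, none of the contrast), it was 17 and 17 (2115 and 1355), or also SFAT-C library 2, it was 1 and 1 (2120 and 1141). It was 204 and 136 with no filter, 1377 and 1104 with DESeq2 (1144 in subcutaneous fat), 653 and 598 with voom (3993), 256 in all when the genes set apart were left out (223), and 181 and 177 with muscle and tract covariates (1684 in visceral fat and, by edgeR, 0 in subcutaneous fat, where 1287 had an unadjusted p under 0.05). DESeq2 scaling (417 and 333), the 20 libraries alone (529 and 381) and leaving out those 2 NaKtide libraries (453 and 358) moved it by under 1.5 times. With genes set apart at an r of 0.5, the count over genes not set apart was 228 in place of 310.

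With a replicate block the count was 338 and 260, and with a replicate block by animal 258 and 201; the numbers were not taken to pair libraries. Leaving out 1 library at a time gave 132 (without VFAT-WD library 3) to 1169 (without VFAT-C library 1) over all genes and 72 to 1003 over those not set apart. The count over all genes moved by over 1.5 times without any one of VFAT-WD libraries 2 to 5, VFAT-C libraries 1 to 5, SFAT-WD libraries 2 to 4 and SFAT-C libraries 2 and 4, and that over genes not set apart also without SFAT-C library 1. Calls in subcutaneous fat ranged between 274 and 771 and in visceral fat between 4834 and 7715. Of the 40 called genes for which each fit was tallied, 12 kept the call in all 20 of these fits and 0 under all 13 other settings.

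The sign turned for Adipoq, whose difference had not passed the test, to -0.16 with voom and to -0.25, -0.25 and -0.28 in the 3 fits without tract-laden libraries. The set-apart genes Cad and Gstm7 turned to 0.02 and 0.02 and to 0.03 and 0.04 in the first 2 of these. With covariates Atp2a1 turned to -0.62 and Lcn2 to 0.58. The cause was not tested.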

Other observations

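The visceral groups with NaKtide, which belong to no comparison of the report, held macrophage genes at sums that cross the diets. On control diet with NaKtide the 20 macrophage genes summed to 2921 to 4203 CPM, and on Western diet with NaKtide to 609 to 2053, beside 2523 to 5413 in VFAT-WD and 273 to 1121 in VFAT-C. On Western diet with NaKtide, libraries 2, 3 and 5 were tract-laden and library 1 stood on the other depot's side. The 609 was library 5 and the 2053 library 1, while library 4, free of both marks, held 1150. On control diet with NaKtide, library 1, at 2921, was tract-laden. Collagen and matrix genes summed to 9243 to 19230 on control diet with NaKtide and to 2550 to 11150 on Western diet with NaKtide, beside 11290 to 19530 in VFAT-WD and 792 to 7010 in VFAT-C. These differences were not tested here.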
